A study of Homo sapiens with 2 samples.

Results

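The HOX cluster genes are the homeobox genes named HOXA, HOXB, HOXC or HOXD followed by a paralogue number, and all 39 of them that the array reads are described here. They were found by gene name in the array annotation, and the family was selected on log2 differences of this same comparison. They are covered by 60 of the 45033 probe sets, or by 39 of the 23619 genes that the probe sets with a gene ID gave. The cells were HCT15, an established human colorectal cancer line, and both samples stably carried a lentiviral hairpin and were sorted on GFP. In 1 sample the hairpin targeted LYAR, which encodes a nucleolar zinc-finger protein (LYAR-shRNA), and in the other it was a non-targeting control (Scramble-shRNA). Each sample was read on 1 single-colour oligonucleotide array, called the knockdown array and the control array below. The labels do not say in words which LYAR hairpin was used or whether the cells came from 1 clone.

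HOX genes encode transcription factors that bind DNA through a homeodomain, usually together with TALE-class partners of the PBX, MEIS and PKNOX families. They lie in 4 clusters, and within each cluster the order of the genes follows the order of their expression along the body axis, with group 1 at the anterior end and group 13 at the posterior end. Genes of the same number in different clusters are paralogues with closely related homeodomains. Adult gut epithelium keeps a regional pattern of HOX expression, and the ParaHox gene CDX2, a regulator of intestinal identity, is itself a homeobox gene. Cluster activity is held off by Polycomb proteins, held on by trithorax-group proteins such as KMT2A, and set in the embryo partly by retinoic acid.

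A difference is the log2 intensity on the knockdown array minus that on the control array, and a gene with several probe sets has the mean of their log2 values. With 1 array per group no difference has a replicate check and no test was made. The random control probes had an intensity of 30.3 on the knockdown array and 32.7 on the control array. A gene or probe set was called detected above 2 times that intensity, that is above 60.7 and 65.4. Of all probe sets, 63.0% and 61.3% were above it. For the 20 HOX genes with more than 1 probe set, differences had a pooled SD of 0.533 among the probe sets of a gene. Probe sets under the detection line are included in it. The same SD was 0.590 over all genes and 0.463 over genes that met the intensity filter given below. It describes how far probe sets disagree, and no estimate of the spread between samples is available. LYAR itself had an intensity of 1036 on the knockdown array and 1925 on the control array, a difference of -0.89. Probe sets differ in how strongly they bind, so no gene's intensity is set against another gene's. The labelled material was double-stranded cDNA, so RNA from either strand of a locus cannot be told apart. In bulk RNA, fewer cells that use a gene and less RNA per cell cannot be told apart either.

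HOX expression was detectable over most of the HOXA and HOXB clusters, in parts of HOXC and in HOXD9, HOXD10 and HOXD11 of the HOXD cluster. By the gene mean, 25 of the 39 genes were detected on both arrays, 3 on the control array alone, 1 on the knockdown array alone and 10 on neither. Over all genes, 13252 of 23619 were detected on both arrays. Of the HOX probe sets 71.7% were above the line on the knockdown array and 65% on the control array. Those shares were 63.0% and 61.3% over all probe sets, so HOX detection lay near that of the whole array. The HOX genes detected on both arrays were 9 of 11 HOXA genes, 9 of 10 HOXB genes, 4 of 9 HOXC genes and 3 of 9 HOXD genes. Among the HOX genes detected on neither array were HOXC5, HOXC12, HOXC13, HOXD1, HOXD3, HOXD4, HOXD8, HOXD12 and HOXD13. At 3 times the random intensity 25 HOX genes were detected on each array, against 26 on the knockdown array and 28 on the control array at 2 times.

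**Figure D1:**
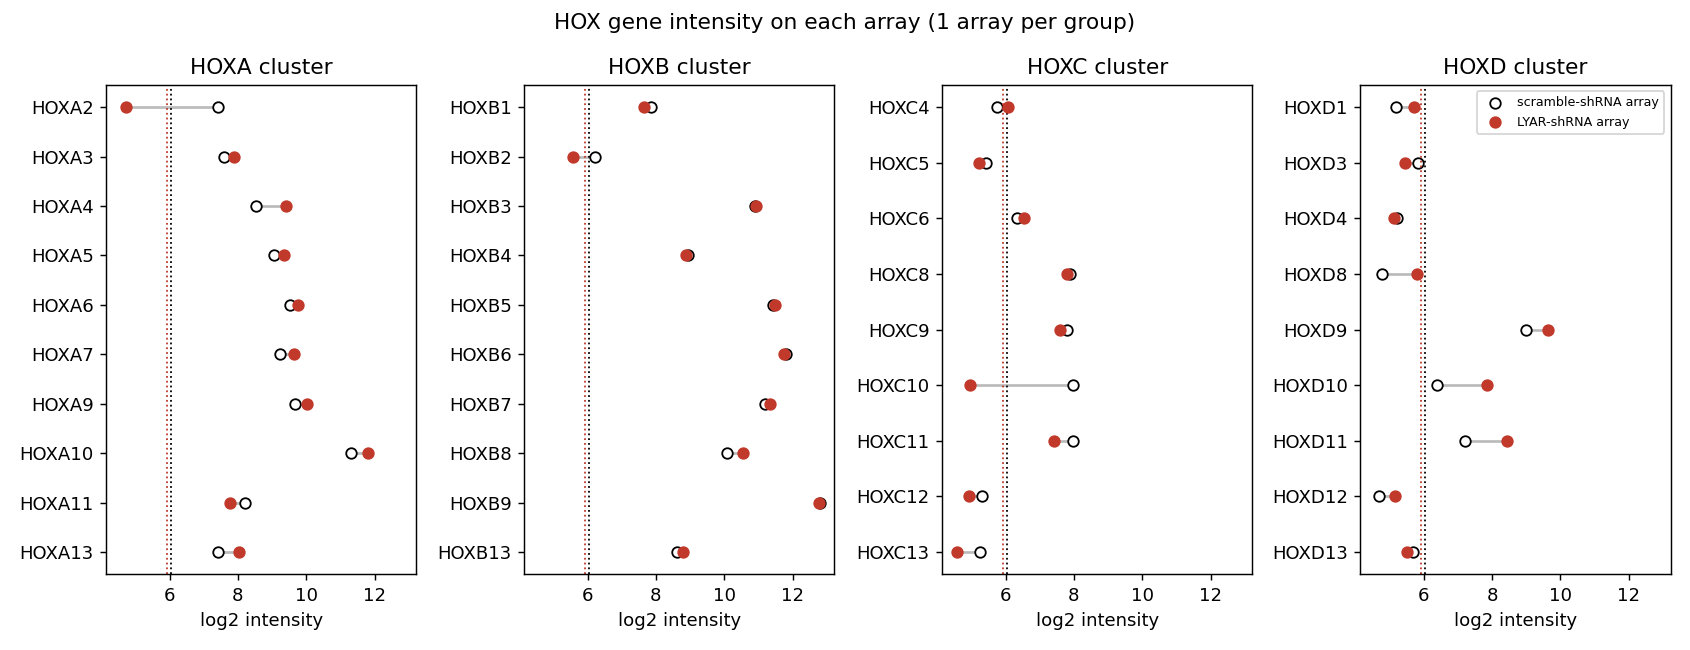
Each row is a HOX gene in its cluster, all but 1 of them shown, ordered by paralogue number, with its log2 intensity on the knockdown array (filled red) and on the control array (open), 1 array each. Dotted lines mark 2 times the random-probe intensity of each array, and intensities should be compared only within a row. HOXA2, HOXB2 and HOXC10 lie above the line on the control array only, although 1 of the 2 probe sets of HOXB2 was above it on both arrays, and HOXD10 and HOXD11 are the detected genes furthest to the right of their control.

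Genes were counted by size where the brighter of their intensities reached 105.9, the median over all genes. Of the 39 HOX genes 26 met this, and among them 2 were at least 2-fold lower on the knockdown array, HOXA2 and HOXC10. Over all 12682 genes that met it, 3.56% were at least 2-fold lower. The genes at least 2-fold higher were HOXD10 and HOXD11, 2 of 26, where 5.06% of all genes were at least 2-fold higher. The other 22 were under 2-fold. Because the family was picked with this contrast in view, the counts are a description and nothing is read from them. HOXA2 and HOXC10 met the filter through the control array alone and HOXD10 through the knockdown array alone, which fixes the sign of their difference, while the other 23 met it on both. On the inner side of 2-fold HOXD11 stood at 1.23 and HOXD10 at 1.47, the latter partly from a control value near the random probes, while HOXA2 and HOXC10 have only a bound. On the outer side they were HOXA4 at 0.88, HOXD9 at 0.64 and HOXA13 at 0.63.

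HOXC10, a posterior gene active in the lumbar cord and hindlimb of the mouse embryo, measured 31.4 on the knockdown array and 248.5 on the control array. The first value was close to the random probes, so only a bound can be given, and HOXC10 was at least 4.09-fold lower on the knockdown array. Its 1 probe set is annotated in hg18 on chromosome 12 from 52665220 to 52670330. HOXA2, which patterns the hindbrain and the second pharyngeal arch, measured 26.5 on the knockdown array and 169.8 on the control array and was at least 2.80-fold lower. It also rests on 1 probe set, annotated on chromosome 7 from 27106497 to 27108919. On the knockdown array HOXC10 lay just above the random-probe intensity and HOXA2 below it. Both genes met the filter through the control array alone, so a low place among all genes was partly built in. Values near the random probes have no known order, so no rank is given for either.

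The arrays also differed in blood-cell genes, and the part of these in the HOX result was not tested. Of 10 leukocyte markers 6 were detected on the control array and 3 on the knockdown array, with summed intensities of 1590 and 657. CD79A, a B-cell receptor subunit, measured 338.9 on the control array and 35.5 on the knockdown array. In the same order CD68 measured 466.8 and 126.9, CD14 343.1 and 214.9, and CD3E 106.4 and 30.1. The 4 leukocyte markers detected on neither array included MS4A1 and PTPRC, the latter at 63.0 on the control array, just under the line. Of 9 red-cell markers 4 were detected on the control array and 2 on the knockdown array, and all 9 summed to 1697 and 476. The 4 were HBB, HBD, HBA1 and HBA2, each at least 2-fold lower on the knockdown array. The other 5, among them ALAS2 and SLC4A1, were detected on neither. Of 10 fibroblast and mesenchyme markers only COL1A1 was detected on each array, at 140.2 and 243.1 in the same order. The summed intensities of 459.9 and 543 include the 9 that were not detected. No endothelial marker of 5 was detected, and of 8 markers of packaging cells and neural cells only TUBB3 was. Colon epithelial markers summed to 118731 on the control array and 116254 on the knockdown array, mostly from KRT8, KRT18 and KRT19. Of these 12 markers 9 were detected on each array and KRT20, CDX1 and GPA33 on neither. Among the 9, 5 differences were above 0, with CDH1 at 0.52, VIL1 at 0.51 and CDH17 at 0.49, and 4 were below. A sum sets the same markers side by side between arrays, not 1 list against another.

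At the other end stood neighbouring posterior HOXD genes, which pattern the forearm and digits of the limb and the terminal gut and genital tract. HOXD11 measured 344.8 on the knockdown array and 147.0 on the control array, a measured 2.35-fold difference of 1.23. Its 1 probe set is annotated on chromosome 2 from 176680329 to 176682562. HOXD10 had 2 probe sets. The brighter measured 307.8 and 193.2, a difference of 0.67, and the other 174.7 and 36.1, at least 2.67-fold higher because its control value was near the random probes. The mean over both, 1.47, therefore rests partly on a value near the random probes, and with the brighter probe set alone HOXD10 was under 2-fold. HOXD9, next to it in the cluster, measured 795 and 508.7, a difference of 0.64. All 3 HOXD genes detected on both arrays were thus higher on the knockdown array. HOXD8, the next gene toward the anterior end, was not detected as a gene, but its brighter probe set was detected on the knockdown array at 74.3 and was at least 1.14-fold higher there.

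Of the genes past 2-fold, HOXA2, HOXD10 and HOXD11 have a promoter in the RefSeq table used here (GRCh38.p14), which held windows for 20 of the 39 genes. The 250 bases before each start site are shown because these are the members past 2-fold that have a window. HOXC10, also past 2-fold, has none. The windows were also shown with their matches to a HOX-PBX motif in view, so the matches are described for these windows only. Capitals mark matches to the HOX-PBX half-site pair TGATNNAT on either strand.
HOXA2, chr7:27102684-27102933, minus strand: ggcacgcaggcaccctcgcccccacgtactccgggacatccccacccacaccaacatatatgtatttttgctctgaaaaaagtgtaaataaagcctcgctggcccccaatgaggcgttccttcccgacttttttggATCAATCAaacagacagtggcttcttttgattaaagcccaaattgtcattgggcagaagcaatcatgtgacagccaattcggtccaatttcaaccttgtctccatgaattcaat
HOXD11, chr2:176107030-176107279, plus strand: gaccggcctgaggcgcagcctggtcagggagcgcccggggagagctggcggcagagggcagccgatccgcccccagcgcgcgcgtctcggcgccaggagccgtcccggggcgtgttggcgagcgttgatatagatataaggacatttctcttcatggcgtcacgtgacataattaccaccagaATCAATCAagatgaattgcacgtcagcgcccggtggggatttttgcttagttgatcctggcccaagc
HOXD10, chr2:176116528-176116777, plus strand: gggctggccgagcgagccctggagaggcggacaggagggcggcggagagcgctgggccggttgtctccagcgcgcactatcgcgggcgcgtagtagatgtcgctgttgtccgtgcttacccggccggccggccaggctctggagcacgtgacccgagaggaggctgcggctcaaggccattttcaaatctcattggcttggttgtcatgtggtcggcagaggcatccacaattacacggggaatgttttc
HOXA2 and HOXD11, which lay on opposite sides of their control, hold the same letters, ATCAATCA, from 114 to 107 bases before the start in HOXA2 and from 67 to 60 bases before it in HOXD11. HOXD10 has no match in this window. Those letters were looked up after the matches were seen, and no HOX window among the 27 other than these 2 holds them on either strand. Over all windows they stand in 0.416%. Because the letters were taken from these 2 windows, the HOX share could not have been lower, and no excess is read from it. The HOXA2 window has a GC content of 47.2%, against 61.6% in HOXD11 and 64% in HOXD10.

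Over the 27 HOX promoter windows in the table, some genes having several, TGATNNAT was found in 3 (11.1%), against 6.47% of all 35116 windows, namely those of HOXA2, HOXD11 and HOXB1. The motif GGTTAT, which LYAR is known to bind at a globin gene, was found on either strand in 1 of 27 (3.70%), in HOXD3, against 4.72% of all windows. A CDX-type core, TTTATNG, was found in 7 of 27 (25.9%) against 8.93%, in HOXA3, HOXA9, HOXA10, HOXC4, HOXC5 and HOXD8. HOXC4 and HOXC5 have windows of equal composition, and HOXA3 has several windows, more than 1 of them with a match. Of HOXB only HOXB1 has a window, and of HOXC only HOXC4 and HOXC5. Shares of windows are therefore not shares of genes. The TATA box TATAAA was found in 5 of 27 (18.5%) against 10.7%, and a TATAAA preceded by C also reads as the CDX core on the other strand. HOX windows had a median of 19 CG pairs and 58.8% GC, against 11 and 58% over all windows. The windows end at the start site, and bases after it were not searched. Matches describe letters in these windows and are not binding sites.

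HOXA genes were mostly somewhat higher on the knockdown array. Of the 9 detected on both arrays 8 were above 0, with a median of 0.36 and a range of -0.44 to 0.88. The 8 include HOXA3, whose probe sets were of opposite sign. Over all genes detected on both arrays the median difference was 0.04 and 54.0% were above 0. HOXA4, of the central group, measured 682 on the knockdown array and 369.6 on the control array, a difference of 0.88 that left 6.80% of all genes that met the filter further toward higher values. HOXA7 measured 800.0 and 598.9, a difference of 0.42. HOXA5, which acts in lung and gut development, had a difference of 0.29 over probe sets at 0.12 and 0.45, and HOXA6 of 0.22 over probe sets at 0.06 and 0.39. Those central genes each lay on the higher side, and the differences were mostly no larger than the SD between probe sets.

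HOXA9, known for its part in leukaemia, measured 1033 on the knockdown array and 806 on the control array, a difference of 0.36. HOXA10, which acts in the uterus and the haematopoietic system, measured 3538 and 2295 in 1 probe set and 3612 and 2841 in the other, with a gene difference of 0.49. Both of its probe sets were well above the random probes, so HOXA10 is among the better measured of the higher values. HOXA13, needed for the hindgut and digits, measured 263.9 and 170.6, a difference of 0.63 from 1 probe set. HOXA11, its neighbour, went the other way with -0.44, and its probe sets gave -0.54 and -0.33. HOXA3, an anterior gene of pharyngeal organs, had a mean of 0.30 from probe sets of opposite sign at -0.32 and 0.92, so its direction is not settled.

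HOXB genes stayed close to their control. All 9 of the genes detected on both arrays lay between -0.18 and 0.48, with a median of 0.03 and 5 above 0. HOXB9, a posterior gene, measured 18614 and 19758 in the brighter probe set and 2620 and 2597 in the other, giving -0.04. The probe sets of HOXB9 thus differed 7.61-fold in intensity on the control array while their differences between arrays were alike. HOXB6 gave -0.04, HOXB5 0.07, HOXB3 0.03 and HOXB4, which acts in blood stem cells, -0.05. HOXB7 gave 0.17 in both of its probe sets. The highest was HOXB8 at 1507 on the knockdown array and 1079 on the control array, a difference of 0.48.

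HOXB13 lies apart from the rest of its cluster and is known for its expression in prostate and distal colon. It gave 0.19, from probe sets at -0.01 and 0.39. HOXB1, a hindbrain gene, gave -0.18, and 1 of its probe sets was under the detection line while the other measured 744 and 926. HOXB2 had 1 probe set under the detection line on both arrays, which put its mean under the line on the knockdown array. Its brighter probe set was detected on both, at 128.4 on the control array and 75.2 on the knockdown array, a difference of -0.77. PRAC1, which lies between HOXB13 and the rest of the cluster, was detected on the control array only and was at least 1.71-fold lower on the knockdown array. HOXB-AS3, a noncoding RNA that overlaps HOXB6, measured 3612 and 2279, a difference of 0.66 that HOXB6 did not show.

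Of the 4 HOXC genes detected on both arrays 1, HOXC6, lay above 0. HOXC11, next to HOXC10, measured 169.0 on the knockdown array and 252.3 on the control array, a difference of -0.58 from 1 probe set. HOXC9 had a mean of -0.20 from probe sets at -0.77 and 0.37, and HOXC8 of -0.10 from probe sets at -0.26 and 0.06. Neither of those genes has a settled direction. HOXC6 had 3 probe sets with differences from -0.38 to 0.75, of which only the lowest was detected on both arrays. HOXC4 was detected on the knockdown array alone, at 67.1 against 53.7, and was at least 1.03-fold higher there. The annotated span of HOXC4 contains HOXC5 and overlaps HOXC6, so their probes may read shared transcripts.

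**Figure D2:**
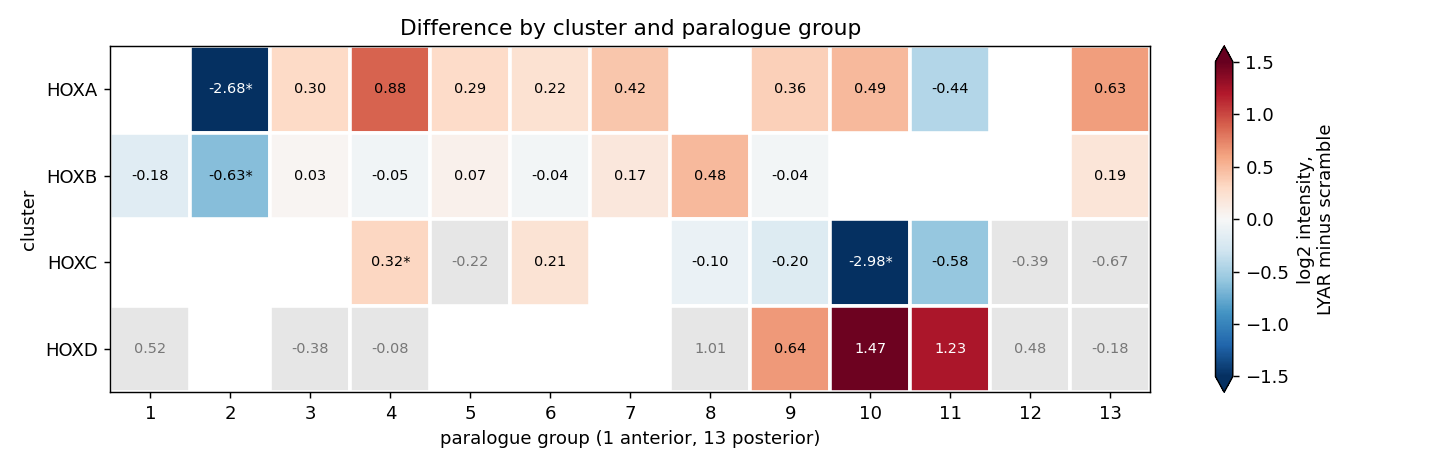
Cells give the log2 difference (knockdown minus control) of each HOX gene by cluster (rows) and paralogue group (columns). Grey cells are genes detected on neither array, an asterisk marks a gene detected on 1 array only, and blanks are positions with no gene or no value shown. A value with an asterisk has 1 side under the detection line and is not a measured size. In group 10 HOXA stands at 0.49 and HOXD at 1.47, with HOXC far below 0.

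In groups 9, 10 and 11 the paralogues lay on both sides of 0. In group 10 HOXA10 stood at 0.49 and HOXD10 at 1.47, while HOXC10 was at least 4.09-fold lower. In group 11 HOXD11 stood at 1.23, against -0.44 for HOXA11 and -0.58 for HOXC11. In group 9, where all 4 genes were detected on both arrays, HOXD9 gave 0.64, HOXA9 0.36, HOXB9 -0.04 and HOXC9 -0.20. In group 8 HOXB8 gave 0.48 and HOXC8 -0.10. By position, the median over all measured members was -0.08 for the 8 anterior genes of groups 1 to 3, 0.21 for the 15 central genes of groups 4 to 8 and 0.08 for the 16 posterior genes of groups 9 to 13. By cluster it was 0.36 for HOXA, -0.00441 for HOXB, -0.22 for HOXC and 0.52 for HOXD, where 6 of the 9 HOXD genes were not detected. The HOXC value is that of HOXC5 and the HOXD value that of HOXD1, both detected on neither array. Over genes detected on both arrays the medians were 0.36, 0.03, -0.15 and 1.23 by cluster. By position they were 0.03, 0.21 and 0.36, in the order above. With only the probe sets detected on both arrays the HOXD median was 0.67. Over all 39 members, detected or not, the median was 0.17, and over all 23619 genes 0.02. Neighbouring genes can share transcripts and regulation, so members are not independent of each other.

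**Figure D3:**
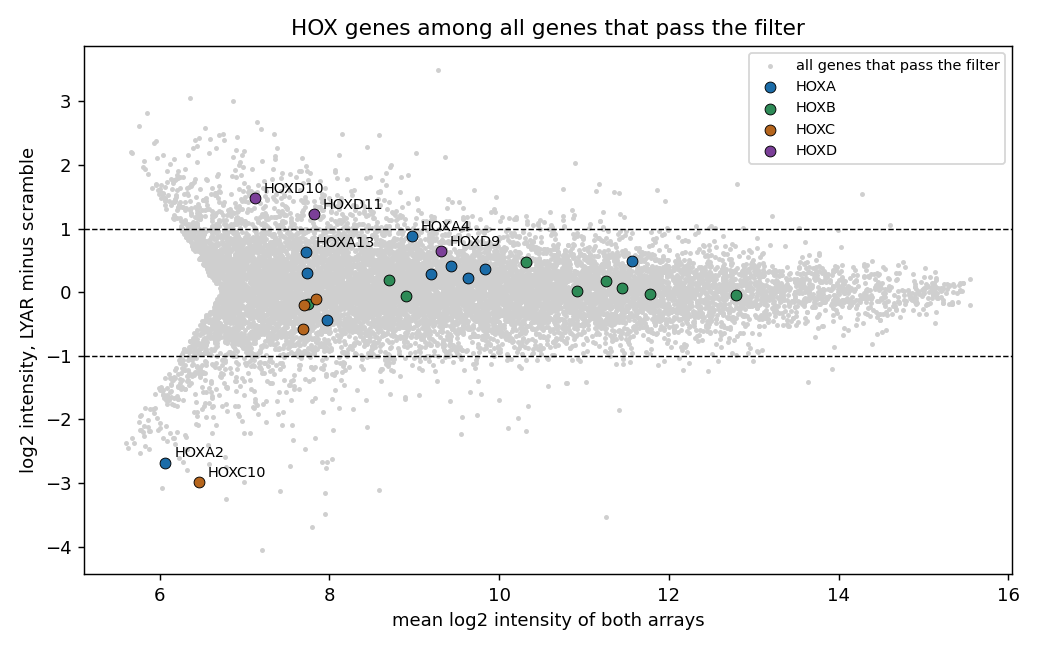
Each grey point is a gene that met the intensity filter, with the mean log2 intensity of both arrays on the x axis and the log2 difference on the y axis. The 26 HOX genes that met it are coloured by cluster, and dashed lines mark 2-fold. HOXB genes lie near 0. The 4 HOX genes past 2-fold lie toward the dim end, where the grey points also spread most. Other HOX genes toward that end, HOXB1 among them, are under 2-fold.

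The size of a difference has to be read against brightness. Among all genes that met the filter, split into 3 groups by mean intensity, the SD of the difference was 0.813 in the dimmest and 0.395 in the brightest. HOXA2, HOXC10, HOXD10 and HOXD11 lie toward the dim end. HOXA10 and all of the HOXB genes stayed under 2-fold, but the HOXB genes were not all bright. HOXB1 had a gene mean of 202.7 on the knockdown array and 229.8 on the control array, and HOXB2 did not meet the filter. Other dim genes, such as HOXA13, HOXC9 and HOXC11, were under 2-fold as well. Of the 20 HOX genes with more than 1 probe set, 11 had all probe sets on the same side of 0 and 9 did not. By cluster the same side held for 5 of 6 genes in HOXA, 3 of 6 in HOXB, 1 of 5 in HOXC and 2 of 3 in HOXD. Probe sets of a gene read the same arrays and are no replicate.

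**Figure D4:**
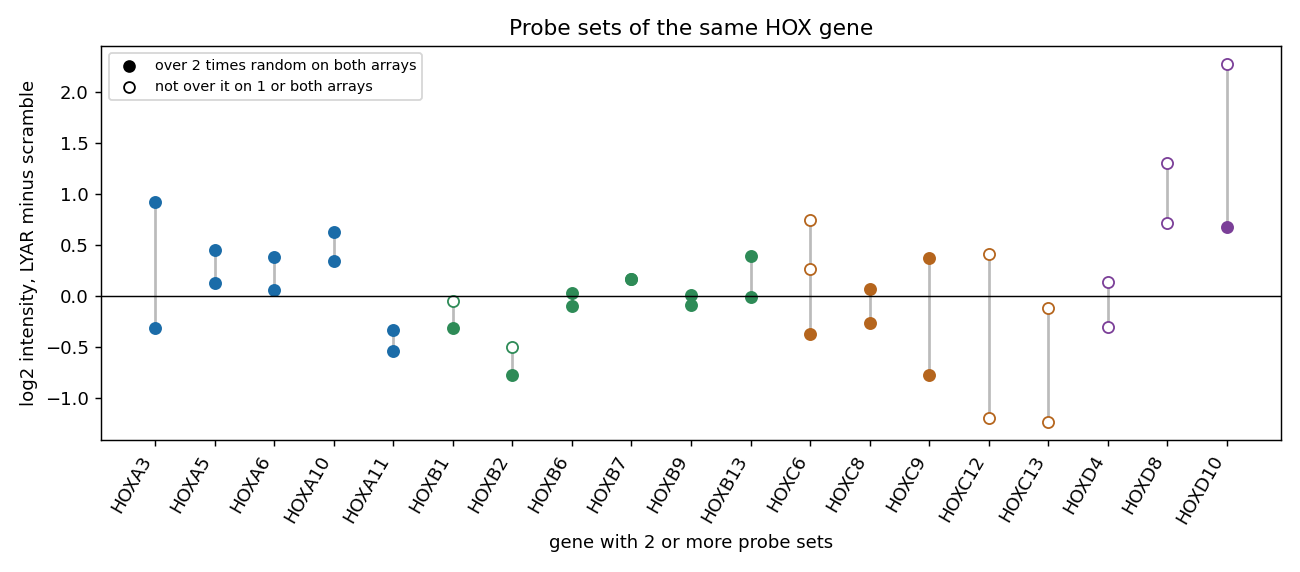
Each column is a HOX gene with 2 or more probe sets, all but 1 of them shown, and each point is the log2 difference of a probe set, filled where it was detected on both arrays. HOXA5, HOXA6, HOXA10 and HOXB7 have filled points on 1 side of 0, while HOXA3 and HOXC9 have filled points on both sides.

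The partners and regulators of HOX genes were counted against all genes that met the filter, of which 11588 of 12682 were under 2-fold. Of the 9 TALE cofactor genes 5 met the filter and all were under 2-fold. MEIS2 measured 243.6 on the knockdown array and 149.0 on the control array, a difference of 0.71 with all 5 probe sets above 0, and PBX4, with 1 probe set, gave -0.00325. PBX2, PBX3 and MEIS3 had means between -0.08 and 0.02 from probe sets of opposite sign, which ran from -1.34 to 0.98 in PBX3. CDX2 measured 4465 and 3632, a difference of 0.30. PDX1, a ParaHox gene of pancreas and duodenum, gave -0.93 and CDX4 -0.70, each from 1 probe set. Of the 3 ParaHox genes that met the filter 0 reached 2-fold.

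All 21 Polycomb genes met the filter, 12 above and 9 below 0, with a median of 0.03. Over all genes that met it, 54.6% were above 0 and the median was 0.05. The catalytic and core subunits of the complex that methylates histone H3, EZH2, EED and SUZ12, gave 0.08, 0.30 and -0.18. The gene past 2-fold was CBX2, at -1.14, with 1 probe set at 0.06 and the other at -2.34. BMI1 gave 0.78 and CBX7 -0.78, each from 1 probe set. Among trithorax-group and MLL-complex genes 13 of 15 met the filter, and 1 was at least 2-fold lower. This was DOT1L, a histone methyltransferase, with 114.9 on the knockdown array and 303 on the control array, a difference of -1.40 from 1 probe set. KMT2A gave -0.39 and KMT2B, at 881 and 1735, gave -0.98, each from 1 probe set.

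Retinoid signalling genes spread most among these lists. Of 9 that met the filter, 2 were at least 2-fold higher, 2 at least 2-fold lower and 5 under 2-fold. CRABP2, a retinoic acid carrier, measured 33806 on the knockdown array and 11650 on the control array, a difference of 1.54 from 1 probe set. CYP26A1, which degrades retinoic acid and is induced by it, measured 163.4 and 68.0, a difference of 1.26. It also rests on 1 probe set, and its control value was just above the detection line of 65.4. The retinoic acid carrier CRABP1 gave -1.21 and ALDH1A3, which makes retinoic acid, gave -1.28, with both probe sets of each below 0. The receptor genes RARA, RXRA and RXRB lay between -0.12 and 0.10, and RARG at -0.28.

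Genes that flank the clusters were measured for 24 of 25 listed. Of the 19 that met the filter 14 were above 0, where 54.6% of all genes that met it were above 0. By measured intensity 18 were under 2-fold and 1 was at least 2-fold lower. That gene was EVX1, a homeobox gene beside HOXA13, which was detected on the control array only and was at least 1.84-fold lower. EVX2, its counterpart beside HOXD13, measured 426.7 on the knockdown array and 388.5 on the control array, a difference of 0.14. MTX2, on the other side of HOXD, gave 0.08, and SKAP2 and HIBADH, on the sides of HOXA, gave 0.46 and 0.31. CBX5 and HNRNPA1, which share a locus near HOXC, gave 0.70 and 0.86.

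**Figure D5:**
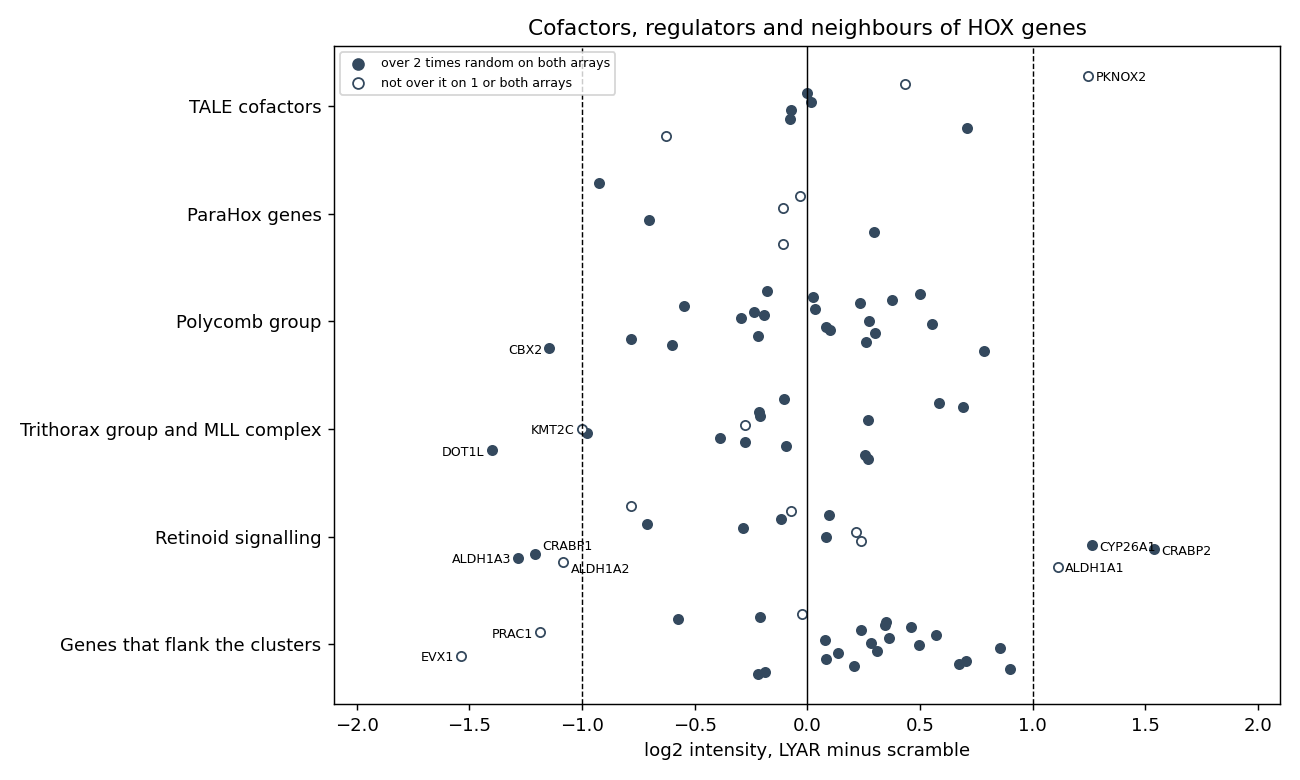
Each point is a gene of a list of HOX partners, regulators or neighbours, all but 1 of them shown, placed by its log2 difference (knockdown minus control) and filled where it was detected on both arrays. Dashed lines mark 2-fold. Among genes detected on both arrays CRABP2 is highest at 1.54 and DOT1L lowest at -1.40, retinoid genes run from -1.28 for ALDH1A3 to 1.54, and TALE cofactors detected on both arrays stay under 2-fold.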

How the data were processed

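Total RNA of HCT15 cells was compared between 1 LYAR-shRNA (knockdown) and 1 scramble-shRNA (control) array. The intensities in the deposited files are linear, and the authors made them with RMA from the probes of each set, per the submitters' processing notes. No source used here gives the RMA settings or the arrays normalized jointly, so a shift of most genes would not be visible. All 60 HOX probe sets hold 3 probes, and positions are in hg18 per the file headers. A deposited column named like a standard error has no stated scale and was not used. Symbols were updated through the gene ID for 38916 of 42947 probe sets with RefSeq (GRCh38.p14).

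Gene values were means of log2 intensities with no pseudocount. No test was possible with 1 array per group, so genes were counted at 2-fold among those at or above the median intensity. Values under 2 times the random-probe intensity were treated as bounds, using the smallest fold where several probe sets gave one. Every HOX gene detected on an array was named, with listed partners and regulators described by count and example. The members and lists were chosen with earlier results of these data known. Alternatives were the brightest probe set, the deposited series table, centring, a lowess trend, quantile normalization, a pseudocount of 32, and other filters. Some genes of the family and the lists enter the counts and medians but are not reported here by name. Python 3.11.15, pandas 2.3.3 and statsmodels 0.14.6 were used.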

Additional observations from a re-analysis of the deposited data

How the results depend on the processing

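The array number, 1 per group, and signals near the random probes limit these results. HOXA2 and HOXC10 were the lower genes under centring, lowess, quantile normalization, the pseudocount, the brightest probe set and no filter. In the series table, which does not hold HOXA2, the count was 1, and it was 0 with genes, or with probe sets, detected on both arrays, since neither gene is detected on the knockdown array. The count of higher genes was 1 with the brightest probe set and with probe sets detected on both arrays, HOXD11 remaining, and 3 with no filter, which adds HOXD8. The median over all HOX genes was 0.0721 with the brightest probe set. The HOXB median changed sign to 0.0265 with the series table, genes detected on both arrays and members that met the filter only, an alternative chosen after seeing the data. The HOXD median was 0.52 and became 1.23 in those same settings, 0.67 with probe sets detected on both arrays, and 0.30 with the pseudocount. Anterior genes went from -0.08 to -0.32 with the brightest probe set and changed sign to 0.0265 with the series table and with genes detected on both arrays. Posterior genes reached 0.35 with the brightest probe set, 0.27 with the series table and with members that met the filter, and 0.36 with genes or probe sets detected on both arrays. Of 311 single-gene values under the alternatives, 300 moved by less than the SD between probe sets and 11 moved by more. Settings that only change which genes are counted leave a gene's value as it was, so part of the 300 could not move. Past 2-fold 0 changed sign, but some smaller differences did. With the brightest probe set HOXA3 went from 0.30 to -0.32, HOXC6 from 0.21 to -0.38 and HOXC9 from -0.20 to 0.37. A threshold at the 95th percentile of the random probes was not run, since the files give 1 summary of them per array. No paired analysis was possible because each group has 1 array.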
